A study of Mus musculus with 18 samples.

Results

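The 10 genes described here are Mki67 and 9 genes of the cell cycle: Top2a, Birc5, Cdk1, Ccna2, Ccnb1, Ccnb2, Pcna, Mcm2 and Ccnd1. They were found by their symbols, and all 10 were present in each of 3 tables, which together held 25915 symbols, 17044 of them in every table. Mki67 was chosen by its higher count level at 3 h than at 0 h, so its own values in that comparison are a description with no test. Calls given there for other genes come from a fit over all genes. The question was whether Mki67 moves with the other genes of mitosis.

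Kupffer cells are macrophages that live in the liver sinusoids. They came from wild-type C57BL/6J mice that had been given acetaminophen (APAP), a drug whose overdose injures hepatocytes. RNA was sequenced from 18 libraries in 6 groups of 3: 0 h, 3 h, 6 h and 12 h of a time course, APAP with an antibody to CD41, a platelet integrin subunit, and APAP with IgG. The 0 h columns bear the name PBS although acetaminophen is their labelled treatment, and the antibody groups carry no time label. Cells were taken by collagenase perfusion, a density gradient and adherence to a dish, so other liver cells that settle with Kupffer cells can be present. Whether replicates were different animals is not labelled, so a p-value reflects the spread among these samples, which may be technical.

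A dividing cell copies its DNA in S phase and separates the copies in mitosis. Cyclin D1 (Ccnd1) acts early, in G1, as the partner of the kinases that open the way to S phase. Mcm2, a subunit of the replicative helicase, and PCNA (Pcna), the clamp that holds DNA polymerase on its template, serve replication. Cyclin A2 (Ccna2), the B-type cyclins (Ccnb1, Ccnb2) and their kinase CDK1 (Cdk1) drive entry into mitosis. Topoisomerase II alpha (Top2a) untangles sister chromosomes, survivin (Birc5) belongs to the chromosomal passenger complex, and Ki-67 (Mki67), the classic stain for cycling cells, coats mitotic chromosomes. Adult Kupffer cells renew themselves by local division at a slow pace.

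In dividing cells, many mitotic genes are switched on together through promoter elements that bind the DREAM and MuvB complexes: the cell cycle homology region (CHR), often next to CCAAT boxes. Promoter windows from RefSeq (build GRCm38.p6, 250 bases before to 50 bases after the annotated start) were present for 8 of the 10 genes, all but Ccna2 and Ccnd1. Both strands were searched for the letters TTTGAA, here named CHR, and for CCAAT, the box of that name. For the E2F element 3 forms were searched: TTCCCGC was the first form, TTGGCGC was the second form and TTCGCGC was the last. The letters of CHR stood in 5 of 8 windows (Mki67, Top2a, Ccnb2, Cdk1 and Mcm2), against 17.9% of 32851 promoters of the same length. CCAAT stood in 7 of 8 against 37.4%, and an E2F match in 3 of 8 (Mki67, Ccnb1, Cdk1) against 8.07%. The windows of Mki67 and Top2a, which differed most in response at 3 h among the mitotic genes with a CHR match, are shown with Ccnb2, Cdk1 and, for contrast, the replication gene Pcna. Each is printed 5′ to 3′ on the gene's own strand up to 20 bases after the start, and capitals mark the matches on either strand. The positions are chr7:135716360-135716629, chr11:99024170-99024439, chr9:70421535-70421804, chr10:69352893-69353162 and chr2:132253161-132253430, all on the minus strand.
Mki67 promoter: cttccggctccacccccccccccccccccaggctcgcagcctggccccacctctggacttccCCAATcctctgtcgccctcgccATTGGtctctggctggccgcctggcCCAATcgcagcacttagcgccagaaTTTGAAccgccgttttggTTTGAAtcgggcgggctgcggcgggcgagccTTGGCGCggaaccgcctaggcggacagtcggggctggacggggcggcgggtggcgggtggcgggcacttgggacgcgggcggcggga
Top2a promoter: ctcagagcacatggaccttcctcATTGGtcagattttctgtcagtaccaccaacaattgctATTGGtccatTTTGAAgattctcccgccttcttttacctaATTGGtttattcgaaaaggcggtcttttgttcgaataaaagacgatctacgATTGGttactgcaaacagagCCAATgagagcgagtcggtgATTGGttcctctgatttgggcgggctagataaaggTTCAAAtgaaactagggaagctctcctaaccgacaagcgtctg
Ccnb2 promoter: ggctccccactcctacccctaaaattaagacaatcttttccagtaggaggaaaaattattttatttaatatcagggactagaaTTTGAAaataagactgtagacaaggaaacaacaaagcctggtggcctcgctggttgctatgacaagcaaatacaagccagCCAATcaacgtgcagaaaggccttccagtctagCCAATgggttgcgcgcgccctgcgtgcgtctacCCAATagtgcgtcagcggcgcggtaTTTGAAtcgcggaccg
Cdk1 promoter: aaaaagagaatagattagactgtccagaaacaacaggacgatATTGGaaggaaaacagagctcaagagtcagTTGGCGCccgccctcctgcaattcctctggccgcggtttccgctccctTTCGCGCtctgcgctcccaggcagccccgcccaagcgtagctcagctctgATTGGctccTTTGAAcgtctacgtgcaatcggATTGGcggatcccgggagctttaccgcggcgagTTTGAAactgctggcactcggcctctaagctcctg
Pcna promoter: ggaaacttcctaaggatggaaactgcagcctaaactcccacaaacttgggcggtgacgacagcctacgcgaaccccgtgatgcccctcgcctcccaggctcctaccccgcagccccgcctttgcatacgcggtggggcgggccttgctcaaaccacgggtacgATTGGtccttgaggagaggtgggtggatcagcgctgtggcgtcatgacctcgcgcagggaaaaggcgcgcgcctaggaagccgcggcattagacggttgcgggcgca
Mki67 had CHR letters beginning 116 and 98 bases before its start, 3 CCAAT boxes further upstream and the E2F letters TTGGCGC 67 bases before it. Top2a had 6 CCAAT boxes and 2 CHR matches, Ccnb2 had 3 and 2, and Cdk1 had 3 and 2 with 2 E2F matches. Pcna had 1 CCAAT box and neither of the other motifs. In Ccnb1 the E2F match overlapped a CCAAT box, so these letters were counted under both. A match describes letters and not binding, and no match says only that these letters were not in the window.

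**Figure D1:**
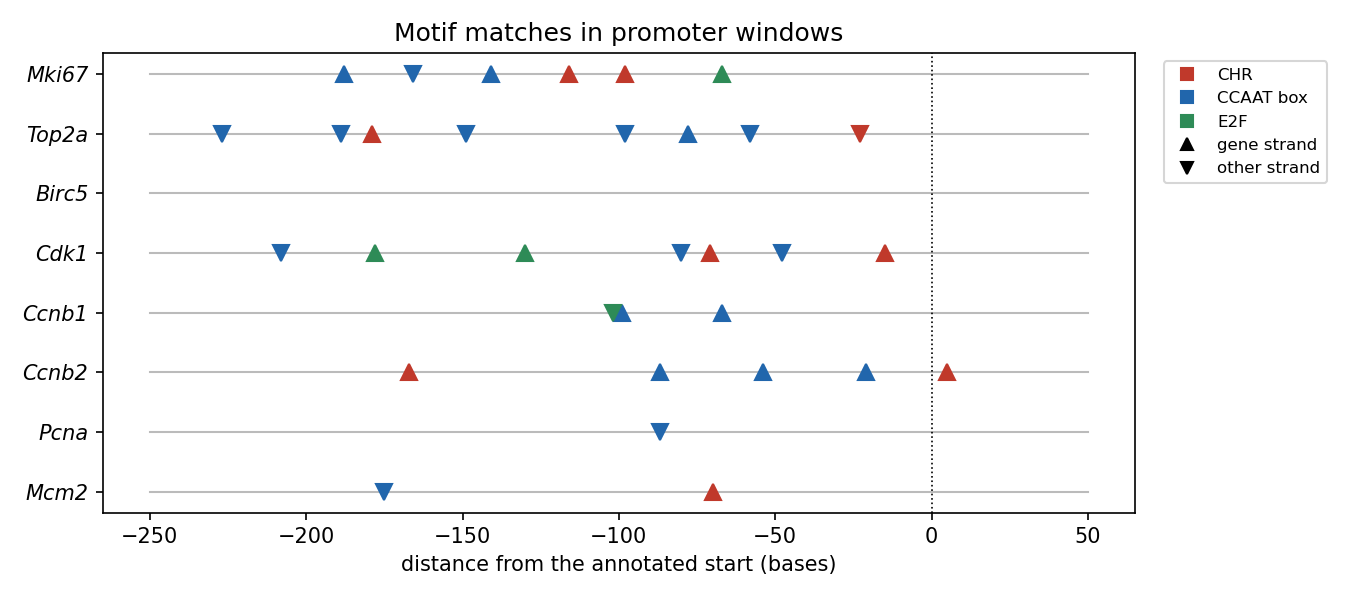
Matches to the CHR (red), CCAAT box (blue) and E2F (green) letters in the promoter windows of 8 genes, with the distance from the annotated start in bases on the horizontal axis. Triangles pointing up are on the gene's strand and those pointing down on the other strand; Mki67 carries 2 CHR, 3 CCAAT and 1 E2F match, and Birc5 none.

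The libraries of 0 h and 3 h held 18644358 to 19954270 counts each, those of 6 h and 12 h 19024975 to 20583099, and those with an antibody 28017439 to 38382509. The 12 Kupffer cell markers summed to between 10172 and 23705 counts per 1e6 counts of the library (CPM) over the groups, with all 12 genes tested in each comparison. A library in each of 2 groups stood apart. In 12 h replicate 2, 20.2% of counts lay in the shortest 10% of transcripts, against 7.72% to 11.3% in the other libraries, and 5.65% in the longest 10%, against 10.7% to 14.1%. In IgG replicate 3 the 8 neutrophil markers summed to 4415 CPM, against 1099 and 935 CPM in the other IgG libraries. In such mixed preparations, fewer cells of a type and less RNA per cell cannot be told apart.

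Mki67 (Entrez identifier 17345; GRCm38 chromosome 7, 135689784 to 135716361, minus strand) stood far above its other levels at 3 h, and most of the other genes did not. Its level was 120.5, 190.4 and 319 CPM in the 3 h libraries, against 45.1, 38.2 and 36.6 CPM in the 0 h libraries. Each 3 h library exceeded each 0 h library, and each also exceeded the highest of the 12 libraries of the other 4 groups, 58.8 CPM. The fitted log2 difference was 2.49 ± 0.37 (SE), a 5.61-fold higher level, which ranked 91 of 14161 tested genes. The 3 h libraries differed widely among themselves, with a coefficient of variation of 48.0%, against 11.3% at 0 h. Left out in turn, the libraries gave log2 differences of 2.02 to 2.81.

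Of the other 6 mitotic genes among the 10, Ccnb2 had the largest difference at 3 h. Its level was 3.09, 3.35 and 3.59 CPM at 3 h, against 1.90, 2.16 and 2.44 CPM at 0 h, and the groups did not overlap. The log2 difference of Ccnb2 was 0.70 ± 0.20 on the count scale and 0.40 ± 0.11 on the log2(FPKM + 1) scale, which understates changes of low genes. Top2a stayed near its 0 h level: 12.9, 11.2 and 12.7 CPM at 3 h, against 10.8, 11.6 and 13.1 CPM at 0 h, with a log2 difference of 0.13 ± 0.13. Ccnb1 had 1.62, 1.86 and 2.09 CPM at 3 h, against 1.39, 1.85 and 1.77 CPM at 0 h (log2 difference 0.23 ± 0.24). In both genes the groups overlapped.

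Cdk1, the kinase of the B-type cyclins, had 6.12, 3.66 and 5.36 CPM at 3 h, against 3.23, 2.51 and 5.30 CPM at 0 h, a log2 difference of 0.54 ± 0.32. Ccna2 had 6.46, 6.21 and 6.39 CPM at 3 h, against 4.23, 4.64 and 7.49 CPM at 0 h, a log2 difference of 0.30 ± 0.23. The highest Cdk1 and Ccna2 values at 0 h came from the same library, replicate 3, and lay among or above the 3 h values. Birc5 had 4.95, 3.13 and 4.11 CPM at 3 h, against 3.18, 2.48 and 3.79 CPM at 0 h. Its log2 difference of 0.45 ± 0.24 shrank to 0.06 ± 0.14 with FPKM, so the 2 deposited measures of Birc5 differed.

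The replication genes lay close to 0 h. Pcna had 100.9, 94.9 and 81.2 CPM at 3 h, against 100.5, 77.1 and 93.0 CPM at 0 h (log2 difference 0.11 ± 0.12). Mcm2 had 17.0, 15.5 and 11.6 CPM at 3 h, against 14.7, 15.2 and 16.1 CPM at 0 h (0.01 ± 0.14, and -0.06 ± 0.14 with FPKM). Both overlapped between the groups, and the 3 h library with the highest Mki67 had the lowest value of both among the 3 h libraries.

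Cyclin D1 went the other way. Ccnd1 had 77.8, 65.4 and 48.4 CPM at 3 h, against 165.7, 206 and 248 CPM at 0 h, and the groups did not overlap. Its log2 difference was -1.62 ± 0.19, which left 0.324 of the 0 h level. The library with the highest Mki67 had the lowest Ccnd1.

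Calls came from edgeR's quasi-likelihood test over all 14161 genes (Benjamini-Hochberg adjusted p under 0.05, here named called). Of the 9 genes other than Mki67, only Ccnb2 was called higher at 3 h, where 19.1% of all genes were called higher. Ccnd1 was called lower, where 23% of all genes were. In either direction 42.1% of genes were called, and in 54.6% the groups did not overlap. Among the 9 genes other than Mki67, the groups did not overlap in Ccnb2 and Ccnd1. The median log2 difference of the 10 was 0.26, against -0.01 over all genes. Mki67 is left out of these counts because of its choice, and nothing is read from its share in the median of the 10. Higher genes made up 45.3% of the calls here and 34.6% with limma on log2(FPKM + 1), where the median of all genes lay at -0.11 and Mki67 at 2.05. Among the fits with a library left out, Ccnb2 kept its call only without 3 h replicate 1.

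**Figure D2:**
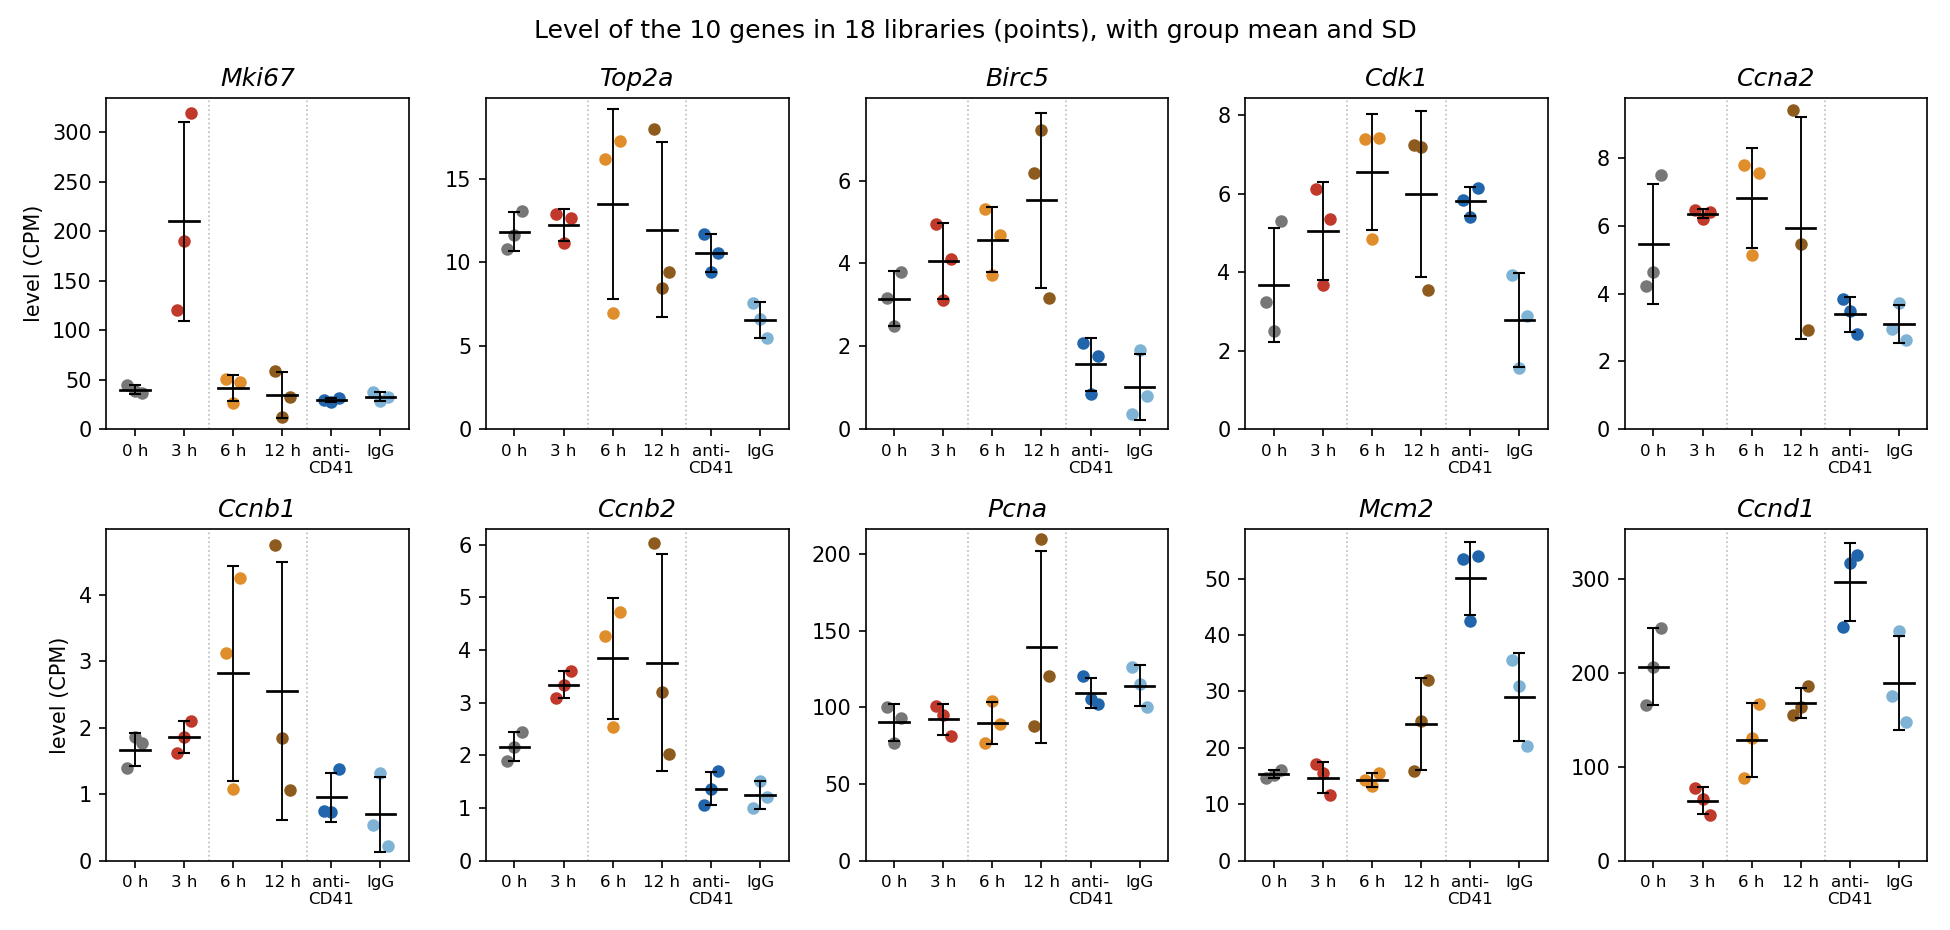
Level in CPM (vertical axes from 0, a different scale for each gene) of the 10 genes in each library, by group. Points are libraries, lines the group mean and bars the SD of 3 libraries; dotted lines separate the 3 tables, across which levels were not tested. The 3 h libraries of Mki67 lie at 120.5 to 319 CPM, above all others, while those of Top2a and Pcna lie among their 0 h libraries.

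The ratio of Mki67 reads to reads of another gene in the same library needs no scaling between libraries. For each read of Top2a there were 9.33 to 25.2 reads of Mki67 at 3 h, against 2.80 to 4.19 at 0 h. It was 2.76 to 3.74 at 6 h and 1.49 to 3.48 at 12 h. It was 2.49 to 2.95 in anti-CD41 libraries, against 4.34 to 6.01 in IgG libraries. For each read of Pcna there were 1.19 to 3.93 reads of Mki67 at 3 h, against 0.394 to 0.495 at 0 h. The 3 h libraries thus had both ratios above every other library. For Ccnb1, which had as few as 8 reads in a library, the ratio was 74.4 to 153 at 3 h, against 20.6 to 32.6 at 0 h, but it reached 149 in IgG replicate 3. For Birc5 it was 24.4 to 77.7 at 3 h, but up to 31.9 with anti-CD41 and 105.7 with IgG. The lowest 3 h ratio was narrowly above the highest IgG ratio for Ccnb2 (39.1 against 37.8) and Cdk1 (19.7 against 18.5). All 3 h ratios contain the Mki67 values by which it was chosen.

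Levels of different genes can be set side by side per transcript length, which the FPKM of the 12 time-course libraries allow. Pcna was highest, with a mean of 85.0 FPKM and a range of 63.3 to 173, followed by Ccnd1 with 37.8 FPKM (12.9 to 66.0). Mki67 came next with 8.67 FPKM (1.31 to 34.0), then Mcm2 with 5.16 FPKM (3.50 to 9.64). The mean and place of Mki67 include the 3 h values by which it was chosen. At 0 h, 6 h and 12 h Mki67 averaged 4.25, 4.42 and 3.69 FPKM, against 4.61, 4.30 and 7.28 FPKM for Mcm2. The 6 remaining mitotic genes had means between 0.981 FPKM (Ccnb1) and 2.52 FPKM (Birc5), and the ranges of neighbours in that order overlapped. Mki67 averaged 22.3 ± 10.8 FPKM at 3 h and 4.25 ± 0.473 FPKM at 0 h (SD, n = 3 each), whereas Top2a averaged 2.37 ± 0.184 FPKM at 3 h and 2.29 ± 0.228 FPKM at 0 h. Mki67 was thus above Top2a per length also at 0 h.

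Transcript length moved with the 3 h difference. Across 14161 genes, which are not independent replicates, length and log2 difference had a Spearman rho of 0.25, and the longest 10% of transcripts had a median log2 difference of 0.29, against -0.34 in the shortest 10%. The Mki67 transcript, at 9413 bases, belongs to the longest 10%, where its difference ranked 6 of 1416. Top2a (5162 bases) and Cdk1 (4307 bases) are the next longest among the 10, and Pcna (1211 bases) is the shortest. At 12 h against 6 h the rho was -0.44 over 14010 genes. The median log2 difference there was -0.27 in the longest 10% and 0.61 in the shortest 10%. With anti-CD41 against IgG the rho was 0.01. The part of length in these results was not tested.

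Markers of other cells also differed between these groups. Counts of called markers stand against 19.1% of all genes called higher and 23% called lower in this comparison. The 8 neutrophil markers summed to 1907, 3089 and 3670 CPM in the 3 h libraries, against 1558, 959 and 501 CPM in the 0 h libraries, and 6 of the 8 were called higher. All 5 platelet markers were called higher, with sums of 43.8 to 56.7 CPM at 3 h, against 13.96 to 20.95 CPM at 0 h. Hepatocyte markers were lower, with 6 of 10 called and sums of 2200 to 4244 CPM at 3 h, against 4554 to 8197 CPM at 0 h. Monocyte markers were lower as well, with 4 of 6 called and sums of 178 to 484 CPM at 3 h, against 893 to 3405 CPM at 0 h. Each marker of these 4 lists had reads in every 0 h and 3 h library. Within the 3 h group the libraries ranked alike by neutrophil markers and by Mki67. In IgG replicate 3, whose neutrophil sum of 4415 CPM was above that of any 3 h library, Mki67 was 32.8 CPM. Of the 12 Kupffer cell markers 5 were called higher, with sums of 15135 to 20210 CPM at 3 h, against 11556 to 16357 CPM at 0 h. Of the 7 myeloid progenitor markers 4 were tested and 1 (Prtn3) was called, lower at 3 h, with the summed level at 134.5 to 175 CPM at 3 h, against 173 to 209 CPM at 0 h. Kit made up most of that sum, with means of 131.8 CPM at 3 h and 176 CPM at 0 h. The part of the other markers in the Mki67 difference was not tested.

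The wider lists of cell cycle genes at 3 h were compiled from textbook roles. In the list of chromosome structure, spindle and cytokinesis, 7 of 36 tested genes were called higher and none lower, with a median log2 difference of 0.22, against -0.01 over all genes. Beside Mki67 these were the condensin subunits Smc4 and Ncapg, the spindle gene Ckap2l, the kinetochore gene Ndc80, the kinesin Kif15 and Anln, which encodes the cytokinesis protein anillin. Ckap2l averaged 14.0 ± 3.98 CPM at 3 h and 6.30 ± 1.32 CPM in 0 h libraries (SD over 3 libraries each). Its log2 difference of 1.23 ± 0.26 was the largest in the list after that of Mki67. Smc4 averaged 59.4 ± 7.17 CPM at 3 h and 42.8 ± 2.55 CPM at 0 h, a log2 difference of 0.55 ± 0.11. The share called higher in this list, 7 of 36 with Mki67 counted by its choice, was near the background of 19.1%.

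In the list of mitotic entry and exit, 2 of 21 tested genes were called higher and 1 lower, both smaller shares than the 19.1% higher and 23% lower over all genes. Mybl2, a transcription factor of the MuvB complex, had a log2 difference of 1.16 ± 0.27, and Espl1, which encodes the protease separase, one of -1.07 ± 0.26. Ccnb2 was the other gene called. The list's median was 0.24, and 0.15 without the genes already described.

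In the list of DNA replication, 7 of 29 genes were called higher, where 19.1% of all genes were. The helicase subunit gene Mcm4 rose to 37.2 ± 4.01 CPM at 3 h, against 19.7 ± 0.952 CPM at 0 h (SD, n = 3 each; log2 difference 0.98 ± 0.11, edgeR adjusted p = 0.00236). The DNA polymerase genes Pola1 and Pole rose by 1.01 ± 0.17 and 1.12 ± 0.26 on the log2 scale, and the helicase loader gene Cdc6 by 1.48 ± 0.29.

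Ccnd1 was not the only G1 gene at a lower level. In the list of G1 entry, 7 of 13 genes were called lower and none higher, where 23% of all genes were called lower, and the list's median was -0.42. Beside Ccnd1, its kinase partner Cdk4 had a log2 difference of -0.59 ± 0.09, the D-type cyclin gene Ccnd2 of -0.98 ± 0.19 and the transcription factor gene E2f2 of -1.74 ± 0.43 (edgeR adjusted p = 0.00433, 0.00819 and 0.0184). The others were Myc, Cdk6 and Ccnd3. In the list of cell cycle inhibitors and quiescence, 8 of 21 tested genes were called higher and 3 lower, where 19.1% and 23% of all genes were, and the list's median was 0.42. Cdkn1a, which encodes the CDK inhibitor p21, averaged 488 ± 108 CPM at 3 h and 129.8 ± 40.8 CPM in 0 h libraries (SD over 3 libraries each). Its log2 difference was 1.98 ± 0.26. Cdkn2b, which encodes the CDK inhibitor p15, rose to 8.16 ± 3.83 CPM at 3 h, against 1.40 ± 0.263 CPM at 0 h, a log2 difference of 2.63 ± 0.41. Rbl2, a pocket protein of the DREAM complex, and Lin54, the MuvB subunit that binds the CHR, rose by 0.75 ± 0.10 and 0.86 ± 0.11. Other genes of these complexes in the list did not all rise. E2f4 was called lower (-0.56 ± 0.12), and Lin9 (0.55 ± 0.20), Lin37 (0.10 ± 0.12) and Lin52 (0.04 ± 0.16) were not called.

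**Figure D3:**
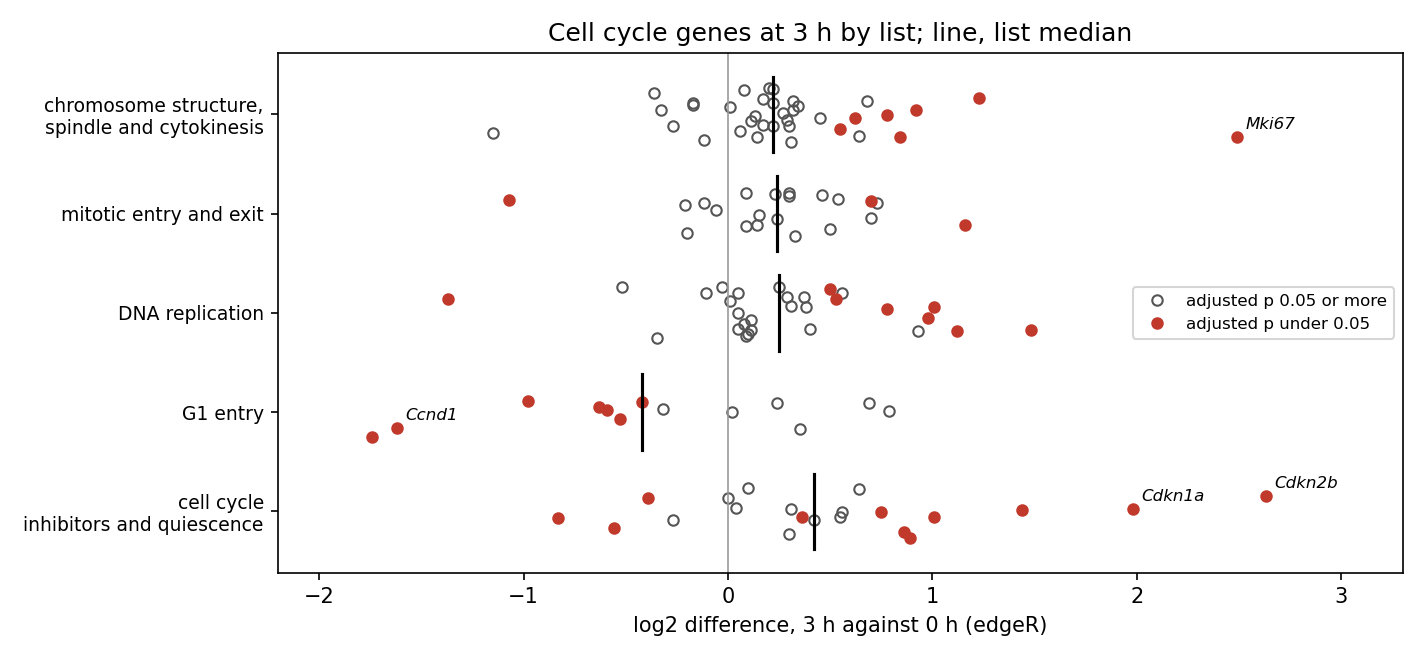
Fitted log2 difference at 3 h against 0 h (horizontal axis) of each tested gene in 5 cell cycle lists (rows; points are spread vertically for legibility). Filled points passed an adjusted p of 0.05 and black lines are list medians, 0.22, 0.24, 0.25, -0.42 and 0.42 downwards. Mki67, chosen by its rise in this comparison, lies apart from its list at 2.49, and Ccnd1 lies at -1.62.

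The 6 h and 12 h libraries, which played no part in the choice of Mki67, gave no called difference for any of the 10 genes. Mki67 had 58.8, 12.6 and 32.7 CPM at 12 h, against 51.1, 26.1 and 47.8 CPM at 6 h, and the groups overlapped. Its log2 difference of -0.25 ± 0.53 (edgeR adjusted p = 0.876) had a 95% interval of -1.50 to 0.99. Without 12 h replicate 2, the library with few reads in long transcripts, it was 0.15 ± 0.37. Over all genes 0 of 14010 were called by edgeR's quasi-likelihood test (0%), 726 had an unadjusted p under 0.05, and DESeq2 called 3.

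The spread within these groups was wide. Top2a had 17.98, 8.45 and 9.41 CPM at 12 h, against 16.2, 6.98 and 17.3 CPM at 6 h. Ccnb1 had 4.75, 1.85 and 1.06 CPM at 12 h, against 3.12, 1.07 and 4.26 CPM at 6 h. In both genes, and in Ccnb2 and Ccna2, 12 h replicate 1 and 6 h replicates 1 and 3 were the highest libraries. Birc5 and Cdk1 ran otherwise in 12 h replicate 2, which had the highest Birc5 (7.21 CPM) and, for Cdk1, 7.19 CPM beside a highest value of 7.41 CPM. Mcm2 was the only one of the 10 genes whose groups did not overlap, where 8.99% of all genes did not. It had 15.9, 24.7 and 32.0 CPM at 12 h, against 14.3, 13.1 and 15.5 CPM at 6 h, a log2 difference of 0.75 ± 0.29 (unadjusted p = 0.0353, edgeR adjusted p = 0.697). Pcna had 88.1, 209.7 and 120.4 CPM at 12 h, against 76.7, 103.9 and 88.9 CPM at 6 h, a log2 difference of 0.61 ± 0.35 that was 0.21 ± 0.23 without 12 h replicate 2. The median log2 difference of the 10 genes was -0.08, against -0.01 over all genes.

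No gene of the 5 cell cycle lists was called between 12 h and 6 h. The replication list had a median log2 difference of 0.32, with 23 of 29 genes above 0 and 6 with an unadjusted p under 0.05, against 5.18% of all genes. Among those 6, Pola1, called higher at 3 h, was lower at 12 h (-0.67 ± 0.26, edgeR adjusted p = 0.697), and the others were higher. The smallest p values in it belonged to Rfc4, a subunit of the clamp loader (log2 difference 1.31 ± 0.40), and Uhrf1, which maintains DNA methylation at replication (1.47 ± 0.54), both with an edgeR adjusted p of 0.697. The lists of mitotic entry and exit and of chromosome structure had medians of -0.05 and -0.08. Monocyte markers summed to 268 to 3893 CPM at 12 h, against 241 to 1351 CPM at 6 h. Kupffer cell markers did not overlap, with sums of 12161 to 16270 CPM at 12 h, against 20277 to 23705 CPM at 6 h, and 11 of 12 below 0. Neutrophil markers did not overlap either, with 929.5 to 988 CPM at 12 h, against 726 to 879 CPM at 6 h. Sinusoidal endothelial markers overlapped, with sums of 7916, 3531 and 1434 CPM at 12 h, against 5674, 4952 and 5831 CPM at 6 h. Their highest libraries, 12 h replicate 1 and 6 h replicates 1 and 3, were also the highest for Top2a, Ccnb1, Ccnb2 and Ccna2. No marker was called. The part of the markers in these differences, and in relations among the genes, was not tested.

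In the antibody groups none of the 10 genes was called. Mki67 had 29.1, 27.1 and 31.2 CPM in anti-CD41 libraries, against 37.7, 28.7 and 32.8 CPM in IgG libraries. The groups overlapped, with a log2 difference of -0.28 ± 0.14 (edgeR adjusted p = 0.332; 95% interval -0.61 to 0.05). Of all 14898 genes, 11 were called (0.0738%), 10 higher (0.0671%) and 1 lower (0.00671%), and 2757 (18.5%) had an unadjusted p under 0.05; 0 to 111 were called when a library was left out. Groups were apart without overlap in 25.5% of genes and in 4 of the 10 described here.

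Those 4 genes were all higher with anti-CD41, each with an unadjusted p under 0.05 and none with an adjusted one. Top2a had 11.7, 9.45 and 10.6 CPM in anti-CD41 libraries, against 7.57, 6.62 and 5.45 CPM in IgG libraries, a log2 difference of 0.60 ± 0.18 (edgeR adjusted p = 0.181; 95% interval 0.18 to 1.03). Cdk1 had 5.83, 5.42 and 6.15 CPM in anti-CD41 libraries, against 3.93, 1.55 and 2.89 CPM in IgG libraries, a log2 difference of 0.96 ± 0.35 (adjusted p = 0.225). Mcm2 had 53.6, 42.6 and 54.0 CPM in anti-CD41 libraries, against 35.6, 31.0 and 20.3 CPM in IgG libraries, a log2 difference of 0.71 ± 0.19 (adjusted p = 0.166). DESeq2, which called 1065 genes in this comparison, called Mcm2 too (adjusted p = 0.0306). Ccnd1 had 249.7, 317 and 326 CPM in anti-CD41 libraries, against 176, 245 and 147 CPM in IgG libraries, a log2 difference of 0.56 ± 0.19 (adjusted p = 0.200). Without IgG replicate 3, the neutrophil-rich library, the log2 differences were 0.52 for Top2a, 1.03 for Cdk1, 0.54 for Mcm2 and 0.45 for Ccnd1.

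The B-type cyclins, Ccna2, Birc5 and Pcna overlapped between the antibody groups. Ccnb1 was low, with 0.745, 0.724 and 1.38 CPM in anti-CD41 libraries, against 0.535, 1.32 and 0.220 CPM in IgG libraries, so its interval ran from -1.21 to 2.00 on the log2 scale. Birc5 was equally uncertain, with an interval of -1.01 to 2.07. Pcna had a log2 difference of -0.15 ± 0.11, and Ccna2 and Ccnb2 had differences of 0.03 ± 0.26 and 0.04 ± 0.38. The median of the 10 genes was 0.46, against 0.01 over all genes.

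Among the 5 lists, the replication genes had the highest median in the antibody comparison, 0.51, with 25 of 29 above 0 and 15 with an unadjusted p under 0.05, but none was called. Mcm6 and Mcm3, helicase subunits like Mcm2, had log2 differences of 0.74 ± 0.16 and 0.47 ± 0.11 (edgeR adjusted p = 0.143 and 0.151). In the list of chromosome structure the median was 0.19, and in that of mitotic entry and exit 0.05. Cdkn1a, higher at 3 h, averaged 81.5 ± 30.2 CPM with anti-CD41 and 197 ± 59.7 CPM with IgG (SD, n = 3 each), a log2 difference of -1.38 ± 0.34 (adjusted p = 0.154). The list of cell cycle inhibitors and quiescence, to which it belongs, had a median of -0.04, with 10 genes above 0 and 12 below. No marker of another cell type was called, but sums of 5 marker lists did not overlap between these groups. Neutrophil markers summed to 317 to 699.5 CPM with anti-CD41, against 935 to 4415 CPM with IgG. Markers of sinusoidal endothelial cells summed to 6950 to 9299 CPM with anti-CD41, against 3134 to 5677 CPM with IgG. Monocyte markers summed to 1007 to 2406 CPM with anti-CD41, against 3634 to 4306 CPM with IgG. Myeloid progenitor markers, of which 3 of the 4 tested lay above 0, summed to 240.7 to 312 CPM with anti-CD41, against 115.4 to 151.4 CPM with IgG. Of the 7 genes in that list, 5 or 6 had reads in each of these libraries, and the shares of single genes in the sum are not reported here. Dendritic cell markers summed to 241 to 257 CPM with anti-CD41, against 162 to 197.5 CPM with IgG. All 10 hepatocyte markers lay above 0, with overlapping sums of 1239 to 3107 CPM with anti-CD41, against 1364 to 1765 CPM with IgG. Their part in these differences was not tested.

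**Figure D4:**
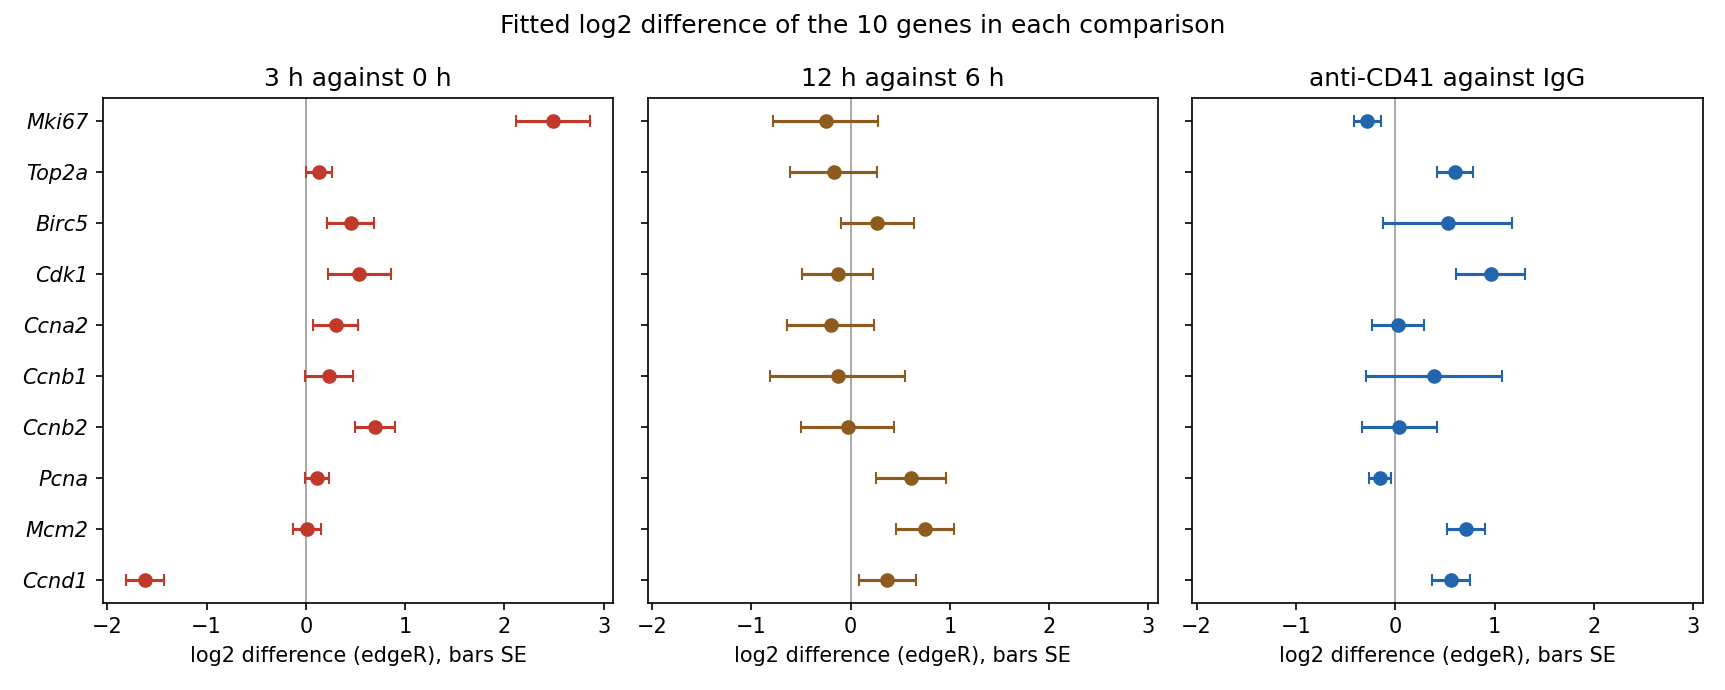
Fitted log2 difference (horizontal axis; bars, SE) of the 10 genes in the 3 comparisons, with 0 marked by a line. Mki67 lies at 2.49 at 3 h against 0 h but at -0.25 at 12 h against 6 h and at -0.28 with anti-CD41 against IgG, where Cdk1, Mcm2, Top2a and Ccnd1 lie between 0.56 and 0.96.

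Correlations across the libraries of a table asked directly whether Mki67 moved with the others, on log2(CPM + 1) and outside the table used to choose it. At 6 h and 12 h (n = 6 libraries), Mki67 followed Top2a most closely, with Pearson's r of 0.82 (exact permutation p = 0.0403, 0.363 after adjustment over 18 relations) and Spearman's rho of 0.89 (exact p = 0.0333, adjusted 0.300). The r was 0.65 with Ccnb1, 0.60 with Ccnb2, 0.52 with Ccna2, 0.19 with Cdk1 and -0.18 with Birc5, with exact permutation p between 0.147 and 0.754 and rho between 0.09 and 0.77. With Mcm2 and Ccnd1 it was -0.46 and -0.28 (exact permutation p = 0.392 and 0.553). Pcna ran opposite, with r of -0.94 (exact permutation p = 0.0125, adjusted 0.225) and rho of -0.89 (exact p = 0.0333, adjusted 0.300). None of the 18 relations passed an adjusted p of 0.05. Each r pools the 2 groups of its table, and the permutation treats their libraries as exchangeable, so a difference between groups can enter r and its p.

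These values leaned on 12 h replicate 2, which had the lowest Mki67 (12.6 CPM) and the highest Pcna (209.7 CPM) and Birc5 (7.21 CPM) of its table. Without it, r with Mki67 was 0.98 for Top2a, 0.94 for Ccnb1, 0.91 for Ccnb2, 0.79 for Ccna2, 0.82 for Cdk1, 0.89 for Birc5 and -0.76 for Pcna (n = 5 libraries, not tested). The 2 libraries farthest from the median Mki67 were 12 h replicate 2 and 6 h replicate 2. Without them, r was 0.93 to 1.00 for the 6 mitotic genes and -0.86 for Pcna (n = 4 libraries). The unadjusted exact permutation p of these r lay between 0.0417 and 0.25. For Mcm2 and Ccnd1 r was -0.91 and -0.45 (exact permutation p = 0.167 and 0.542). Of these 4 libraries, 12 h replicate 3 was the lowest in Mki67 and in each of the 6 mitotic genes, so each r can rest on it. In the antibody table (n = 6 libraries) r was above 0 for 1 of the 9 genes, Pcna at 0.32, and between -0.68 (Ccnd1) and -0.07 (Cdk1) for the rest, with exact permutation p of 0.136 or more. For Mcm2, Ccnd1 and Birc5 it was below 0 in both tables. The r of Pcna turned to -0.93 without the 2 libraries farthest from the median Mki67, and to -0.53 without IgG replicate 1 alone. With Top2a it was -0.36 (exact permutation p = 0.479, adjusted 0.663) and rho was -0.26 (exact p = 0.658, adjusted 0.911), and r was -0.40 without the 2 libraries farthest from the median.

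**Figure D5:**
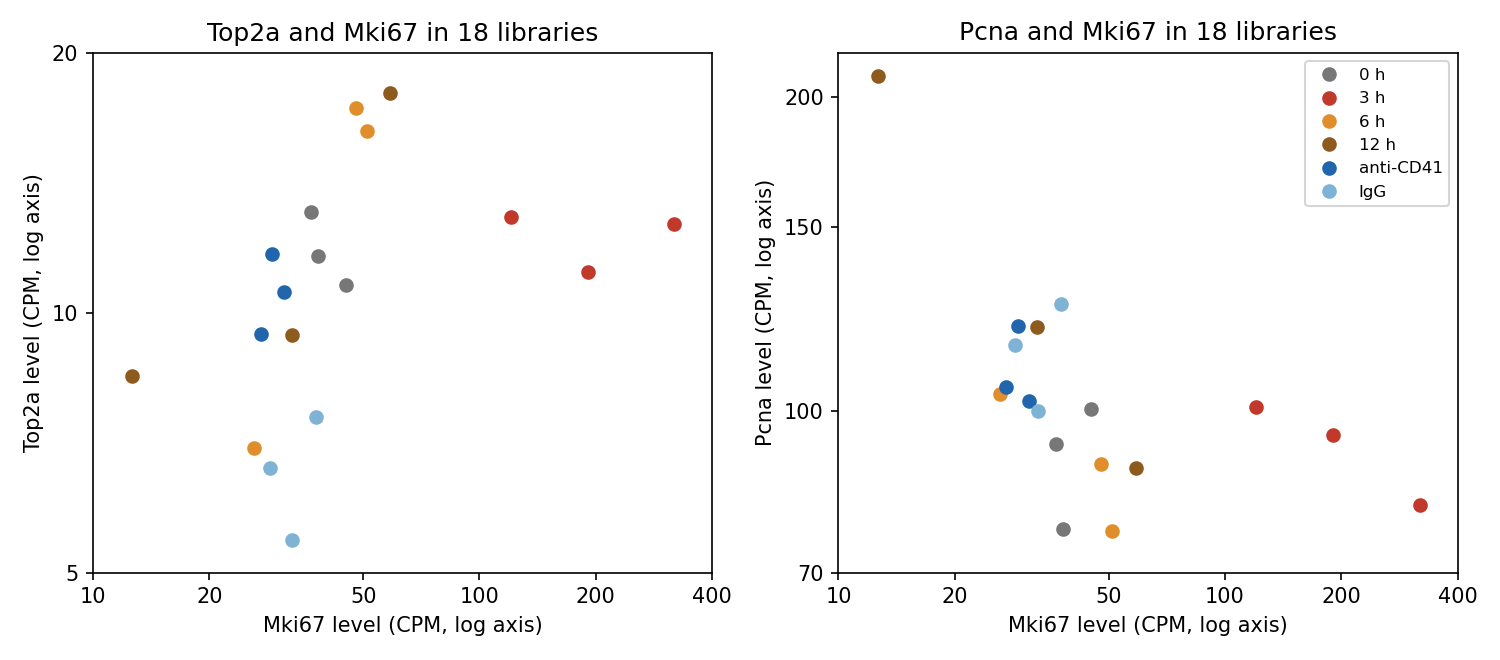
Level of Top2a (left) and Pcna (right) against that of Mki67 in 18 libraries, all on log axes in CPM and coloured by group. The 3 h libraries lie to the right at 120.5 to 319 CPM of Mki67 with Top2a at 11.2 to 12.9 CPM; among the 6 h and 12 h libraries Top2a runs with Mki67 (r = 0.82) and Pcna against it (r = -0.94).

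Relations among the mitotic genes were also described over the 18 libraries, each value taken as its deviation from the mean of its table. Pairs of the 6 mitotic genes other than Mki67 had a Pearson's r between 0.35 (Ccnb1 and Cdk1) and 0.85 (Ccnb1 and Ccnb2). Mki67 had 0.62 with Ccnb2, 0.35 with Ccnb1 and Ccna2, 0.34 with Top2a, 0.23 with Cdk1 and 0.06 with Birc5. These 18 libraries include the 3 h values by which Mki67 was chosen. Over the 12 libraries outside the 0 h and 3 h table, pairs of the 6 other mitotic genes had r between 0.30 (Cdk1 and Birc5) and 0.92 (Ccnb1 and Ccnb2). There Mki67 had an r of 0.62 with Top2a, 0.52 with Ccnb1 and Ccnb2, 0.44 with Ccna2, 0.09 with Cdk1 and -0.21 with Birc5. With Ccnd1 it was -0.79 over the 18 libraries and -0.29 over the 12 libraries outside the 0 h and 3 h table. Libraries of a table share their processing, and those of a group their treatment, so these values carry no p.

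The genes most like Mki67 by the same measure were sought over all 18 libraries, which include the 3 h values by which it was chosen. Genes under 5 CPM in some table were left out, among them Ccnb1, Ccnb2, Ccna2, Cdk1 and Birc5. Among 9964 genes with a mean of at least 5 CPM in each table, the 5 with the highest r were Apaf1 (0.92), Aff1 (0.92), Cspp1 (0.91), Flcn (0.90) and Avl9 (0.90). Apaf1 encodes the core of the apoptosome, Aff1 a scaffold of transcription elongation, Cspp1 a centrosome and spindle pole protein, and Flcn folliculin. Top2a ranked 2577, Mcm2 5840, Pcna 6751 and Ccnd1 9450. Of the 5 most like genes only Cspp1 was also among the top 5 by Spearman's rho (0.91) or by r over the 12 libraries outside the 0 h and 3 h table (0.97). Apaf1 averaged 234 ± 74.0 CPM at 3 h and 89.0 ± 14.0 CPM at 0 h, and Aff1 averaged 409.9 ± 94.1 CPM at 3 h and 127 ± 9.88 CPM in 0 h libraries (SD over 3 libraries each). Cspp1 averaged 30.9 ± 3.12 CPM at 3 h and 21.6 ± 0.396 CPM at 0 h, a smaller difference than that of Mki67. The transcripts of Apaf1, Aff1 and Avl9 have 6492, 8289 and 6655 bases, and those of Cspp1 and Flcn 3982 and 3030 bases, against 9413 in Mki67.

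Some of the genes share their place in the genome with another. Mki67 overlaps Gm45240 on the opposite strand, Ccna2 overlaps Exosc9 and Ccnd1 overlaps LTO1, and Top2a overlaps Gm23451 and Gm26394. The strand used in counting is not stated, so reads of overlapping stretches cannot be told apart. Exosc9 lay between 13.8 and 41.0 CPM and LTO1 between 10.7 and 25.0 CPM over the tables. LTO1 was under Ccnd1 in each library, whereas Exosc9 was above Ccna2 in each library.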

How the data were processed

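Kupffer cell RNA of 18 libraries was aligned with HISAT2 to GRCm38, per the submitters' processing notes; not given in the sources used here: counting program, annotation, strand setting and versions. Per the file headers, the time course stands in 2 tables (0 h with 3 h, 6 h with 12 h) in which the authors deposited expected counts, which are estimates, and FPKM by Entrez identifier; 35.3% to 36.2% of these counts were not whole, and they were rounded. The antibody table that the authors deposited holds whole-number counts by Ensembl identifier. In it 27 symbols had become dates and were restored through GENCODE, which held 22022 of 24781 identifiers; 19 symbols shared by several identifiers went to the identifier with the most counts.

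Levels are counts over the library total, times 1e6 (CPM), and were not tested across tables. Each comparison was fitted within its table with edgeR 4.0.16 in R 4.3.3 (filterByExpr with a minimum count of 10, TMM, quasi-likelihood test, two-sided, Benjamini-Hochberg over all tested genes, threshold 0.05). All 10 genes passed the filter in each comparison; intervals are 95% from the fitted SE. Common biological coefficients of variation were 0.201, 0.371 and 0.266. The script was tested on simulated counts. No 2 libraries agreed within sampling noise (lowest chi-square per degree of freedom 15.8). Correlations used exact permutation tests. Likeness to Mki67 was Pearson's r of log2(CPM + 1), centred within tables, and 5 genes were named. Of each list up to 4 called genes with the smallest p, or up to 2 if none was called, are described. Ncapg, Kif15, Anln, Myc, Cdk6, Ccnd3 and Prtn3 complete counts and were added after their values were seen. Kit, E2f4, Lin9, Lin37 and Lin52 stand beside other genes of their lists and were also added after their values were seen, as was Pola1 at 12 h. Some results for list genes, among them the genes of the replication list called lower at 3 h, are not reported here. The 10 genes, the lists and the tests were chosen with earlier results of these data known.

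Alternatives were DESeq2 1.42.0, its size factors in edgeR, no filter, the replicate number as a block, each library left out and, for the time course, limma 3.58.1 on log2(FPKM + 1), keeping genes that reach 1 FPKM in 3 libraries. The deposited TPM columns were not used.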

Additional observations from a re-analysis of the deposited data

How the results depend on the processing

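In 3 h against 0 h, the log2 difference of Mki67, by which it was chosen, lay between 2.02 and 2.81 under the 11 alternatives, and that of Ccnd1 between -1.76 and -1.47. Of the 9 genes other than Mki67, Ccnb2 lost its call for each library left out except 3 h replicate 1. All genes called then numbered 3512 to 6192, with 1599 to 2671 higher and 1855 to 3521 lower, the lowest counts without 3 h replicate 3 (3512) or 0 h replicate 2 (3715). With limma on FPKM 1788 genes were called higher.

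In 12 h against 6 h, DESeq2 called 3 genes (2 higher, 1 lower), and leaving out a library gave 0 to 2 (0 to 1 in each direction). The sign turned for uncalled genes when a library was left out, with log2 ranges of -0.85 to 0.15 for Mki67, -0.56 to 0.05 for Top2a, -0.90 to 0.30 for Ccnb1, -0.52 to 0.30 for Ccnb2, -0.66 to 0.16 for Ccna2 and -0.29 to 0.18 for Cdk1. In anti-CD41 against IgG, DESeq2 called 1065 genes (622 higher, 443 lower) and 1 of the 10, Mcm2 (log2 difference 0.70); leaving out a library gave 0 to 111 genes (0 to 91 higher, 0 to 20 lower), the most without anti-CD41 replicate 1. There the ranges that crossed 0 were -0.02 to 1.25 for Ccnb1, -0.14 to 0.19 for Ccnb2 and -0.08 to 0.16 for Ccna2. The number of genes with r to Mki67 above 0 in the antibody table was 2 without the 2 libraries farthest from the median of Mki67 and 1 to 2 when a library was left out. Of the 5 genes most like Mki67, 1 was shared with the list by Spearman's rho and 1 with that over 12 libraries. The cause of these changes was not tested.

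Replicate numbers appear in each group but no label says that they mark shared animals or days. Same-numbered libraries deviated from their group means with correlations of -0.15 to 0.31, -0.04 to 0.31 and 0.09 to 0.30, so they were taken to share only a number; in the antibody table each library correlated best with its own number, a hint from the data and not from the design. With the replicate number as a block, 5041 genes were called at 3 h (1 of the 10 higher, with Mki67 counted by its choice). At 12 h 0 were called, and with anti-CD41 390 (300 higher, 90 lower). Few reads limit Ccnb1 and Birc5, with as few as 8 and 10 per library.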
